A study of Homo sapiens with 4 samples.

Results

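The cytosolic chaperonin TRiC, also called CCT, and the mitochondrial chaperonins were examined in Kasumi-1 cells with and without knockdown of ANP32B. The members were chosen by name, with earlier results of these data known. They were the 8 genes of the TRiC ring (TCP1, CCT2, CCT3, CCT4, CCT5, CCT6A, CCT7 and CCT8) and the 2 mitochondrial genes HSPD1 and HSPE1. All 10 were found among the 18567 genes of the table. RNA sequencing was performed on 4 bulk samples of Kasumi-1, a long-established human line of acute myeloid leukemia (AML). The control group NC held 2 samples and the knockdown group sh-ANP32B held 2 samples carrying a short hairpin RNA (shRNA) against ANP32B. The sample labels call the NC samples untreated with no shRNA, but its published methods give a control hairpin and puromycin selection, so the state of the NC samples was not settled. Which of the hairpins each sh-ANP32B sample carried and the time of harvest were not stated. Effects of infection and selection on the NC comparison therefore cannot be told apart from the knockdown, and all samples come from 1 cell line.

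Chaperonins are large ring-shaped protein machines that enclose an unfolded protein and use ATP to help it fold. Each ring of TRiC is built from different but related subunits, one from each of the TRiC genes listed here, and it folds actin, tubulin and many WD40-repeat proteins in the cytosol. HSPD1 (HSP60) forms the barrel of the mitochondrial chaperonin and HSPE1 (HSP10) forms its lid. The genes of HSPD1 and HSPE1 lie head to head and are known to share a promoter region that responds to heat shock and to mitochondrial stress.

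Because HSPD1 and HSPE1 are transcribed away from each other, the DNA between their starts is shown first. The RefSeq promoter table (GRCh38.p14, 250 bases upstream of each start) held 12 windows for 9 of the 10 members and no entry for CCT6A. The RefSeq starts of HSPD1 (position 197500274, minus strand) and HSPE1 (position 197500379, plus strand) are 105 bases apart on chromosome 2. The 104 bases between them, chr2:197500275-197500378 on the plus strand, overlap an exon of another annotated HSPE1 transcript. The capitals mark the letters CACGTG, the E-box.
HSPD1-HSPE1 interval: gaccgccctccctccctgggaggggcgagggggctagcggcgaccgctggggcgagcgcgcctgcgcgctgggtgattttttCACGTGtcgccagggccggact

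The E-box was searched on both strands and lay in 6.35% of the 35116 promoters in the table. Among the members it was found upstream of HSPD1 and HSPE1, whose windows overlap, so 1 site was counted for both genes. The unit bound by heat shock factors was searched as the inverted pairs TTCNNGAA (6.62% of promoters) and GAANNTTC (5.78% of promoters). These pairs overlap each other when units are repeated. Windows of HSPD1, TCP1 and CCT2 held at least 1 pair, and the sites are shown with the pair letters in capitals and 30 bases in all. The HSPD1 site holds 4 units in a row with alternating direction, an arrangement found in 7 of the 35116 promoters (0.0199%).
HSPD1 site, chr2:197500061-197500090, minus strand: gcattTTCTGGAAAGTTCTGGAAccgagcg
TCP1 site, chr6:159789815-159789844, minus strand: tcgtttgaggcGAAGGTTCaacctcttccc
CCT2 site, chr12:69585789-69585818, plus strand: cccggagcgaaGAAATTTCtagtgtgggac

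The HSPD1 site begins 245 bases upstream of a second RefSeq start of HSPD1 (position 197499840) and lies in an annotated HSPD1 exon. The TCP1 site begins 231 bases upstream of TCP1 and lies in an exon of its neighbour MRPL18. The CCT2 site begins 89 bases upstream of the second RefSeq start of CCT2 and lies in an annotated CCT2 exon. None of these letters was found in the windows of CCT3, CCT4, CCT5, CCT7 or CCT8. These matches describe the letters in the windows and do not show that a factor binds there.

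Values are given in TPM, a unit of transcript abundance that corrects the reads of a gene for its length and scales each sample to the same sum. TPM values are shares of a sample and keep no depth. The sums of 997812 to 998314 TPM per sample are set by the unit, so the sequencing depth was unknown and no counting interval could be given. The level of ANP32B was checked first. It was 383.8 and 392 TPM in the NC samples and 51.8 and 41.2 TPM in the sh-ANP32B samples, 12.0% of the NC mean (log2 fold change -3.04, SE 0.15, limma with Benjamini-Hochberg adjustment, adjusted p = 0.00516). Of 10 marker genes of Kasumi-1 cells 8 had values here. CD34 and MPO had none here, so their levels are unknown. Across the 4 samples CEBPA ranged from 292.1 to 476.9 TPM, SPI1 from 241 to 363.6, RUNX1 from 120.5 to 142.6, PTPRC from 113.1 to 203.3, ANPEP from 81.7 to 134.4, CD33 from 58.5 to 70.1, RUNX1T1 from 15.6 to 31.2 and KIT from 1.55 to 3.41. KIT was the lowest of the 8, so their sum says little about it. The 8 markers summed to 954.9 to 998.2 TPM in NC and to 1154 to 1364 TPM in sh-ANP32B. None of them passed the adjusted test, while 3 were higher by the criterion of the study (a log2 fold change beyond 0.5 in size together with an unadjusted p under 0.05), and their part in the chaperonin values was not tested. The B lymphocyte marker CD79A was at 0 to 2.17 TPM. The 6 erythroid and megakaryocyte and 6 epithelial and stromal markers had no values here, so their levels are unknown.

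The chaperonin transcripts were abundant in NC cells. HSPD1 had the highest mean level (820.9 ± 26.3 TPM, SD, n = 2) and its lid partner HSPE1 the lowest (149.9 ± 6.40 TPM). The TRiC subunits lay between them, from CCT8 (411.4 ± 11 TPM) through TCP1, CCT3, CCT7, CCT4, CCT5 and CCT6A to CCT2 (175.2 ± 6.10 TPM). In NC, neighbours in this order did not overlap in any of the 9 steps. In sh-ANP32B the samples of CCT3 and CCT7, of CCT7 and CCT4, and of CCT5 and CCT6A overlapped, so their order could not be told there.

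All 10 members were at a lower level in both sh-ANP32B samples than in both NC samples. Such a separation towards lower values was seen in 21.4% of the 16817 genes tested. By limma on log2(TPM + 1) with Benjamini-Hochberg adjustment over all genes tested, 3 of the 10 members (CCT5, HSPD1 and HSPE1) fell with an adjusted p under 0.05, against 1.18% of all genes. No member rose, against 2.14% of all genes. The criterion of the study was applied here to the limma results, whereas the study's methods name a test on counts. By it 6 members were lower (CCT2, CCT3, CCT5, CCT6A, HSPD1 and HSPE1), against 6.55% of all genes, and none was higher, against 12.1%. The median log2 fold change was -0.57 over the members, -0.47 over the 8 TRiC subunits, -0.80 over the mitochondrial pair and 0.08 over all genes tested. Because the members were chosen with earlier results of these data known, these contrasts are descriptions and not a test of the list. The adjusted calls changed when 1 sample was left out. The lone sample of a group is then assumed to vary like the other group, so the spread comes from that group alone. Without NC replicate 1 or 2, 0 members passed the limma test, against 0.476% and 0.351% of all genes called lower, and the median member log2 fold change was -0.575 and -0.568. Without sh-ANP32B replicate 1 all 10 passed and without replicate 2, 7 passed, against 9.68% and 8.47% of all genes called lower, with medians of -0.62 and -0.51. Nothing states that the replicates were separate cultures, so the p-values measure the spread between these samples, and an exact permutation test of 2 against 2 cannot give a p below 0.33. In bulk RNA, fewer cells of a kind and less RNA per cell cannot be told apart.

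**Figure D1:**
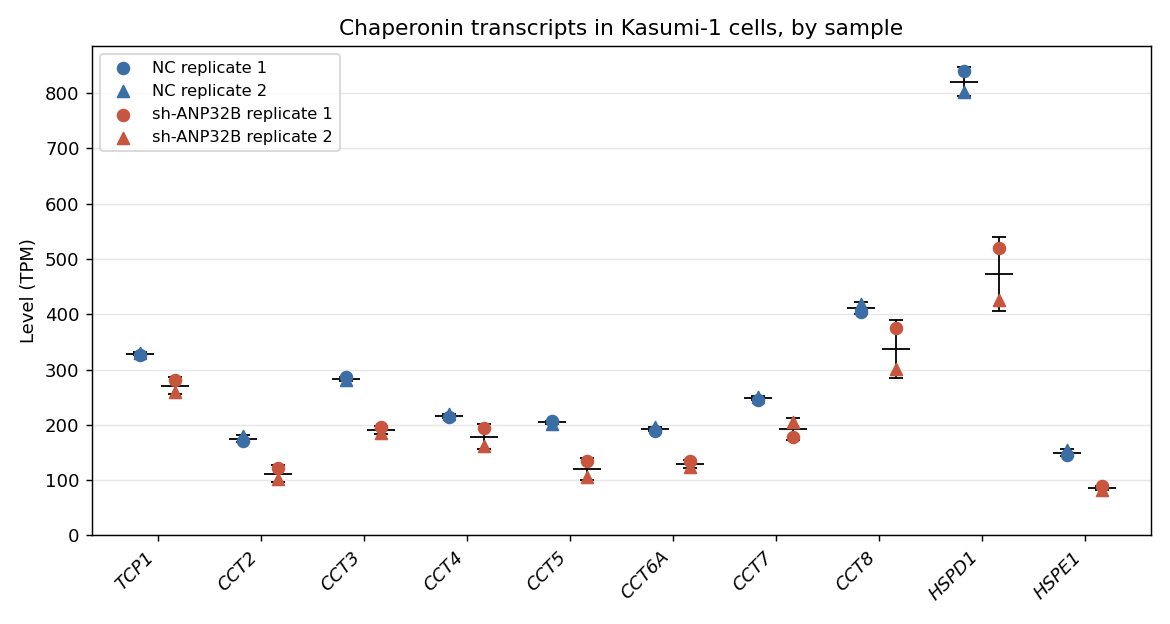
Level in TPM (y axis) of the 10 chaperonin genes (x axis) in each NC and sh-ANP32B sample, with circles for replicate 1, triangles for replicate 2, horizontal lines for group means and bars for 1 SD (n = 2). Both sh-ANP32B points lie below both NC points for every gene, with the widest gap in HSPD1, from 820.9 to 472.5 TPM.

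HSPD1, the barrel of the mitochondrial chaperonin (ENSG00000144381, chr2:197486584-197516737, minus strand, hg38), was at 839.5 and 802.3 TPM in NC and at 519.9 and 425 TPM in sh-ANP32B. The groups did not overlap, and the gap between them was wider than the spread within either group. Its mean fell to 57.6% of NC, from 820.9 ± 26.3 to 472.5 ± 67.1 TPM (log2 fold change -0.80, SE 0.14, limma adjusted p = 0.0440). Without NC replicate 1 the adjusted p was 0.236 and without NC replicate 2 it was 0.181, at log2 fold changes of -0.77 and -0.84.

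HSPE1, the lid (ENSG00000115541, chr2:197500140-197503449, plus strand), was at 145.4 and 154.4 TPM in NC and at 88.6 and 82.7 TPM in sh-ANP32B. Its mean fell to 57.1% of NC, from 149.9 ± 6.40 to 85.6 ± 4.16 TPM (log2 fold change -0.80, SE 0.13, limma adjusted p = 0.0392). The samples of each group lay close together and the groups were well apart. Without NC replicate 1 and without NC replicate 2 the adjusted p was 0.181 and 0.286.

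The balance of barrel and lid was then compared. The ratio of HSPD1 to HSPE1 in TPM was 5.77 and 5.20 in NC and 5.87 and 5.14 in sh-ANP32B, with means of 5.49 ± 0.41 and 5.51 ± 0.52. Both NC ratios lay within the range of the sh-ANP32B ratios. Together the pair summed to 984.9 and 956.8 TPM in NC and to 608.5 and 507.7 TPM in sh-ANP32B, 57.5% of the NC mean. The annotated exons of the genes overlap by 135 bases on opposite strands, 1.77% of the HSPD1 exon bases and 7.41% of those of HSPE1. The use of strand in the counting was not stated, so reads in that overlap could have been given to either gene. HSPE1 also shares 192 exon bases with the read-through gene HSPE1-MOB4 on its own strand. GENCODE names 27 pseudogenes or read-through genes after HSPE1 and 18 after HSPD1. How reads shared with them were counted is unknown, so the size of the ratio is uncertain.

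**Figure D2:**
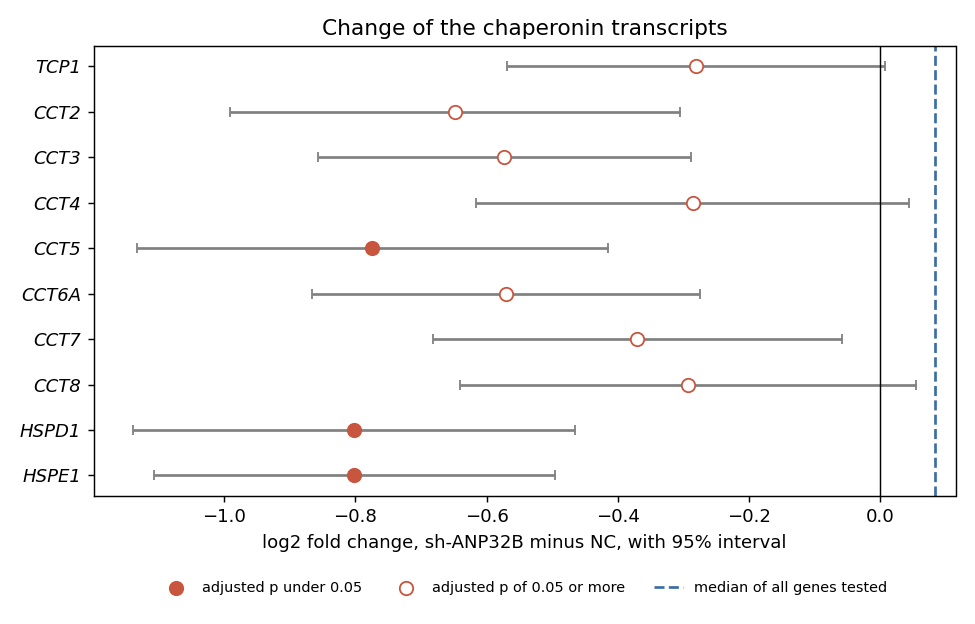
Log2 fold change of sh-ANP32B against NC (x axis) for each chaperonin gene, with bars for the 95% interval from limma, and the median of all genes tested as a dashed line at 0.08. Filled points mark the 3 genes with an adjusted p under 0.05, and the intervals of TCP1, CCT4 and CCT8 include 0.

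CCT5, the epsilon subunit of TRiC (ENSG00000150753, chr5:10249929-10266389, plus strand), was the TRiC gene that passed the adjusted test. Its level was 206.8 and 202.3 TPM in NC and at 133.8 and 106.2 TPM in sh-ANP32B. Its mean fell to 58.7% of NC, from 204.6 ± 3.18 to 120.0 ± 19.6 TPM (log2 fold change -0.77, SE 0.15, limma adjusted p = 0.0482). The gap between the groups was larger than the spread within either one. Without NC replicate 1 and without NC replicate 2 the adjusted p was 0.254 and 0.237. An antisense long non-coding RNA (ENSG00000271980, not analysed here) covers 30.8% of the annotated CCT5 exon bases, and without strand its reads cannot be told from those of CCT5.

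CCT2, CCT3 and CCT6A met the criterion of the study and narrowly missed the adjusted test. CCT2, the beta subunit (ENSG00000166226, chr12:69585426-69601570, plus strand), was at 170.9 and 179.5 TPM in NC and at 122.6 and 101.2 TPM in sh-ANP32B (log2 fold change -0.65, SE 0.14, limma adjusted p = 0.0609). CCT3, the gamma subunit (ENSG00000163468, chr1:156308968-156367873, minus strand), was at 286.4 and 281.2 TPM in NC and at 195.4 and 185.6 TPM in sh-ANP32B (log2 fold change -0.57, SE 0.12, limma adjusted p = 0.0557). CCT6A, the zeta subunit (ENSG00000146731, chr7:56051685-56063989, plus strand), was at 189.8 and 195.3 TPM in NC and at 134.6 and 124.4 TPM in sh-ANP32B (log2 fold change -0.57, SE 0.12, limma adjusted p = 0.0591). Their sh-ANP32B means were 63.9%, 67.1% and 67.2% of NC. None of the 95% intervals included 0, and they reached from -0.99 to -0.31 for CCT2, from -0.86 to -0.29 for CCT3 and from -0.87 to -0.27 for CCT6A. Without either NC sample they again missed the threshold, and without either sh-ANP32B sample they passed it.

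CCT7, the eta subunit (ENSG00000135624, chr2:73233420-73253021, plus strand), was at 245.3 and 250.7 TPM in NC and at 178.2 and 206 TPM in sh-ANP32B. It was the 1 member that was higher in sh-ANP32B replicate 2 than in replicate 1. Its mean was 77.5% of NC (log2 fold change -0.37, SE 0.13, limma adjusted p = 0.155).

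TCP1, CCT4 and CCT8 stood nearest to the control level. TCP1, the alpha subunit and the gene after which the ring was named (ENSG00000120438, chr6:159778498-159789703, minus strand), was at 327 and 330.7 TPM in NC and at 282 and 259.6 TPM in sh-ANP32B. CCT4, the delta subunit (ENSG00000115484, chr2:61868085-61888671, minus strand), was at 214 and 219.3 TPM in NC and at 194.3 and 162.2 TPM in sh-ANP32B. CCT8, the theta subunit (ENSG00000156261, chr21:29055805-29073797, minus strand), was at 403.6 and 419.2 TPM in NC and at 375.1 and 300.3 TPM in sh-ANP32B. Each gene was lower in every sh-ANP32B sample, but the 95% intervals included 0. The log2 fold changes were -0.28 (interval -0.57 to 0.01, limma adjusted p = 0.220) for TCP1, -0.29 (interval -0.62 to 0.04, adjusted p = 0.266) for CCT4 and -0.29 (interval -0.64 to 0.05, adjusted p = 0.279) for CCT8. The sh-ANP32B means were between 82.1% and 82.3% of NC. Without sh-ANP32B replicate 1 all passed the adjusted test, with log2 fold changes of -0.34, -0.42 and -0.45. Without sh-ANP32B replicate 2 none passed, with log2 fold changes of -0.22 for TCP1 (limma adjusted p = 0.0795), -0.16 for CCT4 (adjusted p = 0.219) and -0.13 for CCT8 (adjusted p = 0.262). TCP1 shares 454 exon bases with ACAT2 on the opposite strand, 9.30% of its exon bases, and ACAT2 was at 52.5 and 53.3 TPM in NC and at 68.6 and 58.2 TPM in sh-ANP32B.

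The knockdown samples differed more from each other than the NC samples did. Between the NC samples the members differed by -0.07 to 0.09 on the log2 scale (replicate 2 minus replicate 1). Between the sh-ANP32B samples the difference ran from -0.33 in CCT5 to 0.21 in CCT7, and it was negative in 9 of the 10. The same difference went with the GC content of the transcript over all genes with a GC value (Spearman rho 0.577 across 15427 genes, which are not independent replicates). Over the 10 members rho was 0.164 and Pearson's r was 0.478. Among the members, CCT3 and CCT7 had the highest GC content (51.3% each, longest annotated transcript) and HSPE1 the lowest (36.9%). With GC correction in each sample the members' log2 fold changes ran from -0.83 in HSPE1 to -0.28 in TCP1, all negative, with a median of -0.61.

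TRiC needs its subunits in equal numbers in each ring, so the transcript pool was also examined as a whole. The TPM of the 8 subunits summed to 2044 and 2078 in NC and to 1616 and 1446 in sh-ANP32B, with means of 2061 ± 24.3 and 1531 ± 120.5 TPM. The knockdown pool was 74.3% of the NC pool, and the groups did not overlap. The highest subunit exceeded the lowest 2.36 and 2.34-fold in NC and 3.06 and 2.97-fold in sh-ANP32B. The coefficient of variation over the subunits was 30.9% and 31.4% in NC and 42.9% and 40.0% in sh-ANP32B. Both measures of spread were higher in each knockdown sample than in each NC sample, as descriptions with no test.

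**Figure D3:**
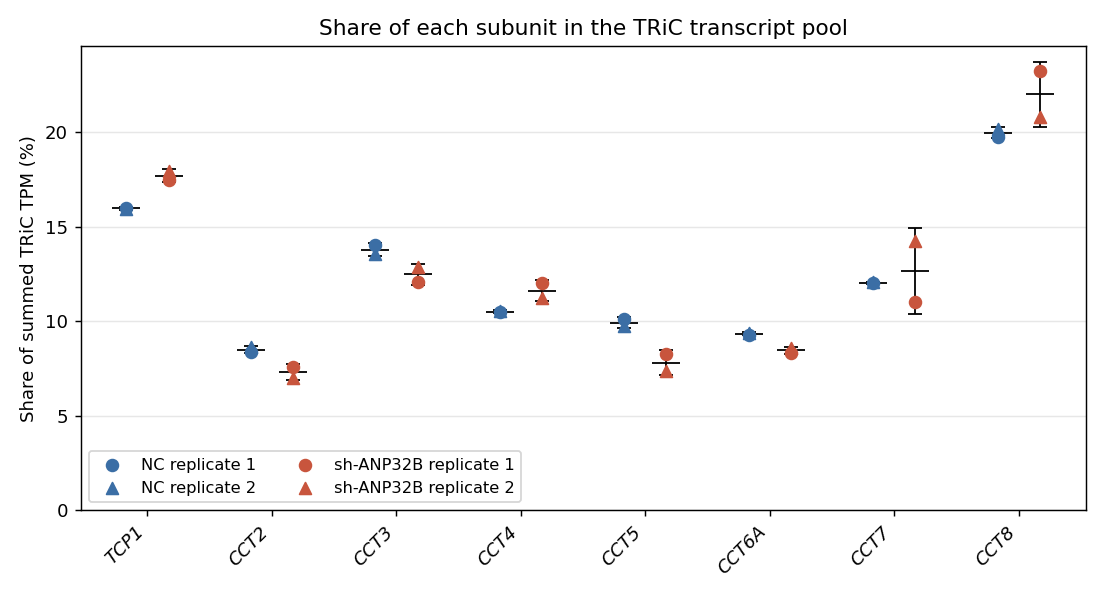
Share of each TRiC subunit in the summed TRiC TPM (y axis, percent) in each sample, with circles for replicate 1, triangles for replicate 2, horizontal lines for group means and bars for 1 SD (n = 2). The mean share of CCT5 was 9.93% in NC and 7.81% in sh-ANP32B, while that of CCT8 was 20.0% in NC and 22.0% in sh-ANP32B.

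The shares of the subunits in this pool are given as descriptions, with no test. CCT5 took 10.1% and 9.74% of the pool in NC and 8.28% and 7.35% in sh-ANP32B. CCT2 took 8.36% and 8.64% in NC and 7.59% and 7.00% in sh-ANP32B. CCT3 and CCT6A were also below their NC shares in both knockdown samples. By contrast, TCP1 took 16% and 15.9% in NC and 17.5% and 18.0% in sh-ANP32B, and CCT8 took 19.8% and 20.2% in NC and 23.2% and 20.8% in sh-ANP32B. CCT4 was likewise above its NC shares of 10.5% and 10.6% in both knockdown samples, at 12.0% and 11.2%. CCT7 overlapped between the groups, with shares of 12.0% and 12.1% in NC and of 11% and 14.3% in sh-ANP32B. Because shares sum to a fixed total, a lower share of some subunits raises that of the others. HSPD1 relative to the mean TRiC subunit was 3.29 and 3.09 in NC and 2.57 and 2.35 in sh-ANP32B, so the mitochondrial barrel was lower relative to TRiC in both knockdown samples.

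Chaperonin genes have many processed copies in the genome that can share reads with them. GENCODE names 55 pseudogenes or read-through genes after the members, 27 of them for HSPE1 and 18 for HSPD1, and 4 were analysed here. HSPD1P1, a copy of HSPD1, was at 12.3 and 13.8 TPM in NC and at 6.06 and 5.37 TPM in sh-ANP32B (log2 fold change -1.06, limma adjusted p = 0.0470). It fell with its parent gene, and reads of the parent and the copy may have been exchanged, so its value is uncertain. CCT8P1 (2.59 to 3.80 TPM, log2 fold change -0.14, adjusted p = 0.807) and HSPE1P2 (0.444 to 3.33 TPM, log2 fold change -0.19, adjusted p = 0.887) did not pass the test. HSPD1P4 (0.784 to 1.19 TPM) was below the filter.

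The cofactors and clients of the chaperonins were then examined as lists of 80 genes, of which 76 had values and 75 were tested. By the adjusted limma test 2 fell (TUBB and MIPEP), 1 rose (STAT3) and 72 did not pass, and by the criterion of the study 14 were lower and 5 were higher. These shares stand beside 1.18% and 2.14% of all genes for the adjusted test and 6.55% and 12.1% for the criterion. They are descriptions, since these lists too were chosen with earlier results known. The count of adjusted calls was 1 without NC replicate 1, 0 without NC replicate 2, and 30 without either sh-ANP32B sample, where 24.3% and 20.7% of all genes were called.

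**Figure D4:**
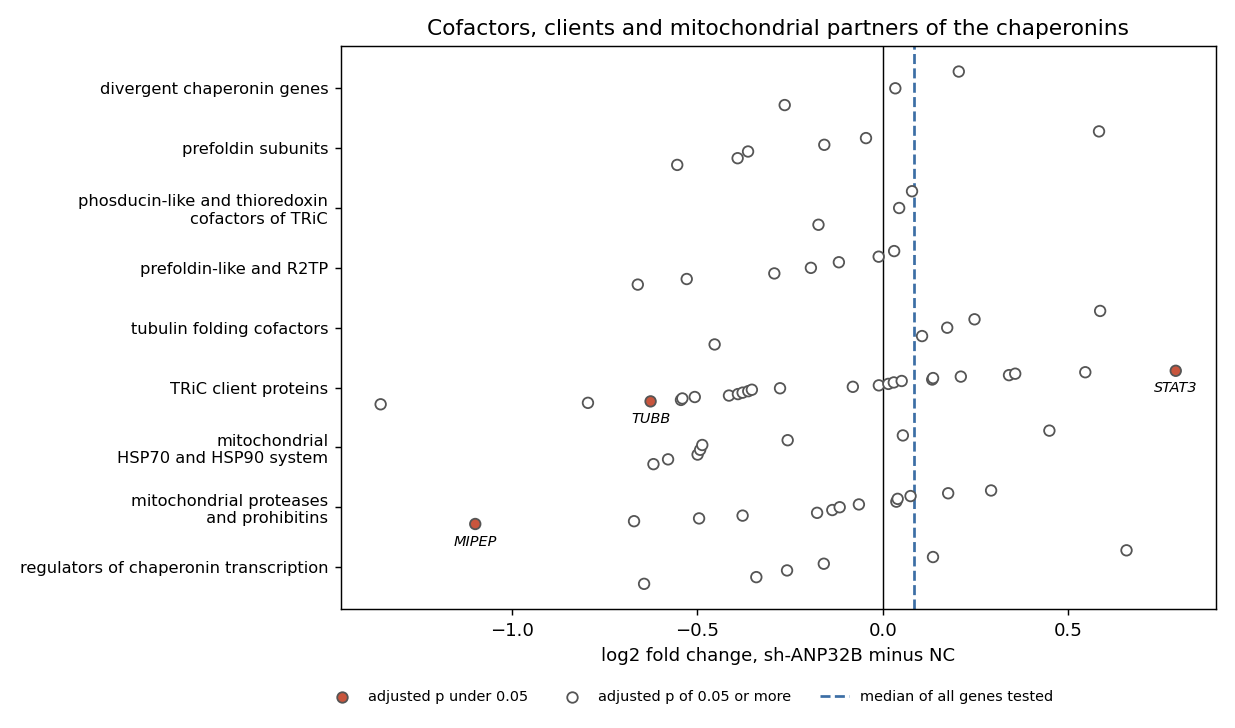
Log2 fold change of sh-ANP32B against NC (x axis) for each tested gene of 9 lists (rows), 1 point per gene, with the points of a row spread vertically for display. Filled points mark the 3 genes with an adjusted p under 0.05 (MIPEP, TUBB and STAT3), and the dashed line marks the median of all genes tested, 0.08.

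Proteins reach TRiC through cofactors, and none of these lists had an adjusted call. Of the 6 prefoldin subunits, which hand nascent actin and tubulin to TRiC, 1 was lower and 1 higher by the criterion of the study (median log2 fold change -0.26). PFDN5, the most abundant of them, was at 340.2 and 347.9 TPM in NC and at 553.2 and 480.6 TPM in sh-ANP32B (log2 fold change 0.58, SE 0.13, limma adjusted p = 0.0604). Its direction was opposite to that of the TRiC subunits. The 3 phosducin-like and thioredoxin cofactors tested, which bind TRiC and adjust its activity, had a median of 0.04, and the most abundant, PDCL3, was at 27.9 to 36.6 TPM (log2 fold change -0.17, adjusted p = 0.578). The prefoldin-like and R2TP genes, which help assemble large protein complexes, had a median of -0.19, with 2 of 7 lower by the criterion. PIH1D1, the most abundant of these, had a log2 fold change of -0.01 (adjusted p = 0.983) with knockdown samples at 134.8 and 202.2 TPM.

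The divergent chaperonin genes, relatives of TRiC that include the Bardet-Biedl syndrome proteins, were expressed at low levels. MKKS was the highest, at 12.1 and 10.8 TPM in NC and at 10.1 and 8.66 TPM in sh-ANP32B (log2 fold change -0.26, adjusted p = 0.466). Of this list 3 genes were tested, with a median of 0.03. The tubulin folding cofactors, which take tubulin on from TRiC, had a median of 0.17 over 5 genes, and the most abundant, TBCA, was at 140.7 and 156.1 TPM in NC and at 109.8 and 106.1 TPM in sh-ANP32B (log2 fold change -0.45, limma adjusted p = 0.102).

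Among 24 clients of TRiC the median was -0.18, with 6 lower and 2 higher by the criterion of the study. TUBB, a beta tubulin, was at 224.7 and 217.9 TPM in NC and at 145 and 141 TPM in sh-ANP32B, and it fell (log2 fold change -0.63, SE 0.12, limma adjusted p = 0.0476). STAT3, a transcription factor that TRiC helps to fold, was at 43.3 and 48.9 TPM in NC and at 79.2 and 81.2 TPM in sh-ANP32B, and it rose (log2 fold change 0.79, SE 0.14, limma adjusted p = 0.0440). ACTB, cytoplasmic beta actin, had the highest level of the list and ranged from 5802 to 6055 TPM over the 4 samples (log2 fold change 0.03, adjusted p = 0.922). The 2 groups of ACTB overlapped.

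In mitochondria, HSPD1 and HSPE1 work beside the HSP70 system, proteases and prohibitins. The 8 genes of the HSP70 and HSP90 system had a median log2 fold change of -0.49, with no adjusted call and 2 lower by the criterion of the study. HSPA9, the mitochondrial HSP70 (mortalin), was at 227.2 and 229.5 TPM in NC and at 164 and 141.8 TPM in sh-ANP32B (log2 fold change -0.58, SE 0.13, limma adjusted p = 0.0647). The 13 proteases and prohibitins had a median of -0.12. MIPEP, a peptidase that trims imported proteins, fell from 13.6 TPM in each NC sample to 5.81 and 5.82 TPM (log2 fold change -1.10, SE 0.19, limma adjusted p = 0.0440). PHB2, the most abundant of the list, was at 329.9 and 299.9 TPM in NC and at 262.8 and 294.1 TPM in sh-ANP32B (log2 fold change -0.18, adjusted p = 0.455).

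The 6 regulators of chaperonin transcription, factors of the heat shock and mitochondrial stress responses, had no adjusted call, and 1 was lower and 1 higher by the criterion of the study. ATF4, which acts in the integrated stress response, was the most abundant, at 343 and 368 TPM in NC and at 255.3 and 307.5 TPM in sh-ANP32B (log2 fold change -0.34, limma adjusted p = 0.203). The median of the list was -0.21.

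The profile of the chaperonins over the 4 samples was also compared with other genes. Relative to the NC mean on the log2 scale, the mean member was at -0.01 and 0.01 in NC and at -0.46 and -0.62 in sh-ANP32B. Of 9733 genes with a mean of at least 10 TPM, the 5 nearest by root mean square distance were ORC6 (distance 0.0108 log2 units), FOCAD (0.0146), NUP88 (0.0149), CCNB2 (0.0151) and VRK2 (0.0171). ORC6, a subunit of the origin recognition complex, was at 75.2 and 75.0 TPM in NC and at 54.9 and 48.4 TPM in sh-ANP32B. None of the 5 passed the adjusted test, with limma adjusted p-values from 0.0714 (CCNB2) to 0.144 (FOCAD). The members themselves lay farther from their own mean, from 0.0295 in CCT6A to 0.193 in HSPD1. As the 5 genes were picked for the smallest of 9733 distances, this contrast follows in part from the choice.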

How the data were processed

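RNA sequencing was performed on 4 Kasumi-1 samples, 2 in the NC group and 2 in the sh-ANP32B group, as given by the sample titles. Per the labels, reads were aligned to hg38 with HISAT2 (version 2.0.5 in the processing notes of the submitters). The deposited TPM values were identified as TPM from their decimals and column sums. The program that made them, the annotation, any filter and the use of strand are not given in the sources used here. The design provided for counts or TPM, and the TPM test was used. The test on counts named in the study's methods cannot be run on TPM.

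A gene entered the test (16817 of 18567) where 2 or more samples had 1 TPM or more. Values were converted to log2(TPM + 1), a scale that understates the change of low genes, and sh-ANP32B was compared with NC by the moderated test of limma 3.58.1 (R 4.3.3) with a trend on abundance. Tests were two-sided, with Benjamini-Hochberg adjustment over all genes tested and a threshold of 0.05. The script was tested on simulated data. There the adjusted test recovered 0.4% of genes changed by 0.5 log2 units and 7.4% of those changed by 1. The simulation changed far fewer genes than the 3995 with an unadjusted p under 0.05 in the data. Fewer changed genes make the adjusted threshold stricter, so these shares need not hold for the data. A gene that did not pass is still not shown to be unchanged. Symbols came from a list of gene names, in which 16986 IDs were found and 1581 were not. Positions and GC content came from GENCODE v44 (hg38). Promoters came from RefSeq (GRCh38.p14). Python 3.11.15, pandas 2.3.3 and matplotlib 3.10.9 were used.

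The members and gene lists were chosen with earlier results of these data known, so no test was run over a list. Genes named with values were the members, their annotated copies, ANP32B, every list gene with an adjusted p under 0.05, the most abundant gene of each list, markers above 1 TPM (1 of which is not reported here), and the 5 genes nearest to the mean member profile by root mean square distance (mean of at least 10 TPM). Alternatives were other scalings, filters and pseudocounts, GC correction, a replicate block, no abundance trend, the criterion of the study, and leaving out each sample.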

Additional observations from a re-analysis of the deposited data

How the results depend on the processing

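Of the alternatives, 9 could move the fold changes of the members, and all 10 members stayed negative in each, with values from -0.95 to -0.13. The count of members that passed depended on the processing. It was 3 with the settings of the report, where 1.18% of genes tested were called lower. It was 6 with at least 1 TPM required in every sample (2.06% called lower) and 6 with median-of-ratios scaling (1.71%). GC correction gave 8 (8.65%), and the criterion of the study gave 6 (6.55%). Without the abundance trend it was 0, where limma called 0 of all genes and 3701 had an unadjusted p under 0.05. Leaving out 1 sample gave 0 to 10 members. Without NC replicate 1 limma called 324 of all genes (1986 unadjusted) and without NC replicate 2 it called 273 (1884 unadjusted), whereas without sh-ANP32B replicate 1 or 2 it called 4079 and 3487, and in each of these fits the lone sample was assumed to vary like the other group. CCT5 was also lost with a pseudocount of 0.1 (adjusted p = 0.0536) and with quantile normalization (adjusted p = 0.0525). ANP32B had an adjusted p of 0.0929 at a log2 fold change of -3.04 without the abundance trend, and it passed elsewhere, with values from -3.21 to -2.88. Among cofactor and client genes the count was 3 in the report, 7 with at least 1 TPM in every sample, 6 with median-of-ratios scaling, 6 with quantile normalization, 5 without mitochondrial genes, 27 with GC correction, 0 without the abundance trend, 19 by the criterion of the study and 0 to 30 when 1 sample was left out. GC correction gave 2557 calls over the 15427 genes with a GC value. The same genes without GC correction, a setting chosen after seeing the data, gave 613 calls, 3 members and 6 cofactor and client genes. The median member log2 fold change of -0.57 moved to -0.66 with median-of-ratios scaling and ranged from -0.62 to -0.51 when 1 sample was left out. The log2 difference in summed TRiC TPM of -0.43 moved to -0.53 with median-of-ratios scaling and ranged from -0.51 to -0.35 when 1 sample was left out. Over all genes 199 were called lower and 360 higher, against 288 lower and 230 higher with median-of-ratios scaling, 234 and 244 with quantile normalization and 1335 and 1222 with GC correction. The cause of these shifts was not tested.

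Samples of the groups share the numbers 1 and 2, but no source ties equal numbers to a shared culture or day. Over 16817 genes, the deviations of samples with equal numbers had a Pearson r of -0.0925. A replicate block gave 4 members (CCT2 in addition) and 8 cofactor and client genes, and the replicate block with GC correction gave 7 and 21. Over all genes these fits called 8.76% and 12.0% in either direction, against 3.32% in the report. They called 2.92% and 6.48% lower, against 1.18% in the report. The crossed pairing, chosen after seeing the data, gave 6 members and 17 cofactor and client genes. It called 11.9% of all genes in either direction and 4.31% lower. Other alternatives gave 2 to 4 members, with 0.993% to 1.39% of genes tested called lower. As TPM keeps no depth, the precision set by sequencing depth is unknown.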

Other observations

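The neighbours of the chaperonin genes were examined after their values were seen. In GENCODE, 5 TRiC genes have a protein-coding neighbour on the opposite strand whose start lies within 1000 bases of theirs, and none of these neighbours passed the adjusted limma test. MRPL18, a protein of the mitochondrial ribosome, starts 109 bases from TCP1 and was at 135.2 and 132.4 TPM in NC and at 124.3 and 131.2 TPM in sh-ANP32B (log2 fold change -0.07, adjusted p = 0.795). COMMD1 starts 53 bases from CCT4 and was at 10.8 and 14.8 TPM in NC and at 13.9 and 9.98 TPM in sh-ANP32B (log2 fold change -0.10, adjusted p = 0.850). The groups of COMMD1 overlapped, and those of MRPL18 did not. PSPH, an enzyme of serine synthesis, starts 81 bases from CCT6A and was at 53.7 and 58.3 TPM in NC and at 48.4 and 39.5 TPM in sh-ANP32B (log2 fold change -0.35, adjusted p = 0.245). ATPSCKMT starts 32 bases from CCT5 and was at 19.1 and 19.2 TPM in NC and at 15.6 and 10.8 TPM in sh-ANP32B (log2 fold change -0.53, SE 0.22, adjusted p = 0.202). PSPH and ATPSCKMT, like MRPL18, were lower in each knockdown sample than in each NC sample, as were CCT6A and CCT5. Such a separation was seen in 21.4% of all genes tested, and a link between neighbours was not tested. PRADC1 starts 181 bases from CCT7, and its groups overlapped (log2 fold change -0.18, adjusted p = 0.689).

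The named copies of CCT6A carry the symbol CCT6P and were added after their values were seen. CCT6P3 was at 13.0 and 15.5 TPM in NC and at 26.5 and 20.1 TPM in sh-ANP32B (log2 fold change 0.66, SE 0.21, limma adjusted p = 0.120). Its direction was opposite to that of CCT6A, and it did not pass the test. CCT6P1 was at 33.2 and 33.7 TPM in NC and at 34.3 and 29.5 TPM in sh-ANP32B (log2 fold change -0.07, adjusted p = 0.834), and its groups overlapped.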
